A study of Arabidopsis thaliana with 12 samples.

Results

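The genes described here are 51 nuclear genes of Arabidopsis thaliana for the photosynthetic light reactions: light-harvesting antenna proteins (LHCB and LHCA), photosystem subunits (PSA and PSB), carriers of the electron transport chain (PETC, PETE, FD2 and FNR) and nuclear subunits of the plastid ATP synthase. They were listed by locus for their known products, and they are 51 of the 32833 loci in the deposited count table. All 51 passed the filter on low counts, which left 19090 genes tested. RNA sequencing was done on aerial tissue of ecotype Col-0, pooled from plants grown in soil at 22 °C with 16 h of daily light and harvested at day 15 after germination. The 3 groups of 4 libraries were stable transgenic lines that all carried BAR: Control expressed GFP alone, and Mlp37347 and Mlp124499 expressed GFP fused to the candidate effector of that name from the poplar rust fungus Melampsora larici-populina. The labels give neither the promoter of the transgenes nor the number of independent lines behind each group. Nor do they state if the 4 libraries of each group derive from separate plantings, so the p-values reflect variation among these samples that may be technical in part.

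In the light reactions, chlorophyll proteins of the LHCII trimer, the minor antenna and LHCI pass excitation energy to photosystem II and photosystem I. Electrons move from water through photosystem II, the cytochrome b6f complex and plastocyanin to photosystem I, and from there through ferredoxin and ferredoxin-NADP reductase (FNR) to NADP, while the ATP synthase uses the proton gradient built on the way. The plastid genome encodes the reaction centre cores, and the nucleus encodes the antenna and many peripheral subunits, which are imported into the chloroplast. Nuclear antenna genes are known in Arabidopsis for strong control by light, by the circadian clock and by the GLK transcription factors.

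Library facts that touch the results come first. Total counts were 6645703 to 37378917 per library, with the lowest in Control 1, in which 57.6% of surviving reads aligned. Elsewhere 88.0% to 95.5% did. Control 1 was the lowest Control library in 42 of the 51 genes, and Mlp37347 4 was the lowest Mlp37347 library in 33 and the highest in 12. Libraries Mlp37347 1, 2 and 3 were close to each other (2.82 to 6.27 for chi-square over its degrees of freedom, where larger values mean a larger distance) and far from Mlp37347 4 (154 to 208). Results that rest on these 3 libraries are given below with the value of library 4. The mesophyll markers RCA, CA1 and GAPA summed to 8873 to 15283 CPM in Control, 9118 to 14027 CPM in Mlp37347 and 5493 to 12426 CPM in Mlp124499, so the markers of green aerial tissue were high in every library. Root markers summed to at most 1.46 CPM and flower markers to at most 3.17 CPM in any library. The table lists 285 organelle loci at 0 in every library, so the plastid-encoded cores of the same complexes were not analysed here. In pooled tissue, fewer cells of a type and less RNA per cell cannot be told apart.

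Of the 51 genes of the light reactions, 5 rose in Mlp37347 against Control and 46 did not pass the test. Those that rose were the LHCII genes LHCB1.2 and LHCB1.4, the minor antenna gene LHCB4.1, the LHCI gene LHCA1 and the plastocyanin gene PETE1. Their log2 fold changes were 1.3, 1.92, 1.05, 0.85 and 1.17. In edgeR's quasi-likelihood test with Benjamini-Hochberg adjustment over the 19090 genes, 3.19% of all genes were called higher at an adjusted p under 0.05 and 5.42% lower. No member was called lower, and DESeq2 and limma voom also called 0 lower, where they called 7.73% and 29.5% of all genes lower. At an unadjusted p under 0.05, 29 members were higher and 0 lower, counts without a background over all genes. The median log2 fold change of the members was 0.66 (range -0.56 to 1.92), against 0.01 for all genes tested, and 50 of 51 were above 0. In 20 of 51 members every Mlp37347 library was above every Control library, a state found in 8.41% of all genes tested, and no member had the opposite state, found in 10.8%. Scaling by total counts in place of TMM moved the median of all genes to -0.19 and that of the members to 0.49, and it moved the calls over all genes from 609 higher and 1035 lower to 351 higher and 1900 lower. In Mlp124499 against Control 1 member, LHCB1.4, was called higher beside 1.56% of all genes, and none was called lower beside 2.71%, so this count is near the background.

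The number of called members depended on single libraries. Without Control 3 it was 0, without Control 2 it was 2, and without Mlp37347 1, 2 or 3 it was 1 each time (LHCB1.4). Without Mlp37347 4 it was 23, and without Mlp124499 4, which enters through the shared filter, scaling and estimate of the spread, it was 11. The share of all genes called higher moved too, from 3.19% to between 1.15% and 1.59% without Control 2, Control 3 or any 1 of Mlp37347 1 to 3, to 11.6% without Mlp37347 4 and to 5.56% without Mlp124499 4. With any 1 library left out, the median log2 fold change of the members stayed between 0.49 and 0.76.

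Counts of reads assigned to the 51 genes made up a large share of each library. Summed over members, the level was 65636, 123021, 111110.0 and 126572 CPM (TMM-scaled read counts, the level used throughout) in Control 1 to 4, 177721, 185606, 174492 and 186752 CPM in Mlp37347 1 to 4 and 172323, 154667, 154121 and 144342 CPM in Mlp124499 1 to 4. As a share of library counts this was 11.2% ± 2.59 (SD, n = 4) in Control, 16.7% ± 1.08 in Mlp37347 and 15.9% ± 1.15 in Mlp124499. Every library of both effector lines was above every Control library, with Control 1 far below the other Control libraries. The 9 LHCII genes alone gave 19417, 45584, 38122 and 50346 CPM in Control, 67942, 75087, 65644 and 90990.3 CPM in Mlp37347 and 80258, 69734, 63677 and 53921 CPM in Mlp124499. For the 6 electron transport genes the groups overlapped: 4289.7, 6659.7, 6416 and 6426 CPM in Control, 8889, 8722, 8957 and 5698 CPM in Mlp37347 and 5504, 5374, 5312 and 8481 CPM in Mlp124499. The 2 ATP synthase genes summed to 2658 to 2743 CPM in Mlp37347 1 to 3 and to 1028 CPM in Mlp37347 4, below all Control libraries (1215 to 1593 CPM).

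**Figure D1:**
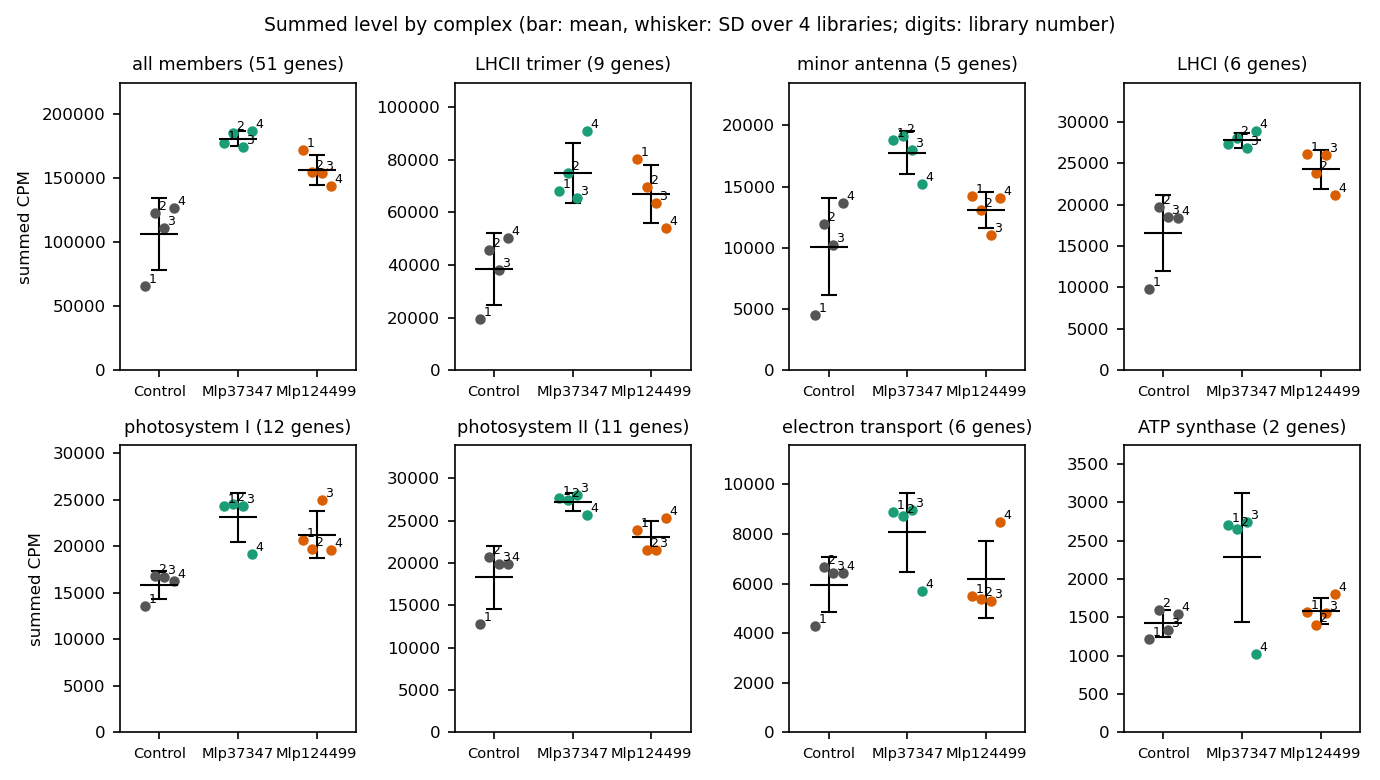
Summed level in CPM (TMM scaled; y axes start at 0) of the genes of each complex in every library; points are libraries with their number, bars the mean and whiskers the SD over 4 libraries of Control, Mlp37347 and Mlp124499. All members together are at 65636 to 126572 CPM in Control and at 144342 CPM or above in every library of both effector lines, and Mlp37347 4 falls away from the other Mlp37347 libraries for electron transport and ATP synthase.

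By complex, the median log2 fold change in Mlp37347 against Control was 0.93 for the LHCII trimer, 0.74 for the minor antenna, 0.78 for LHCI, 0.54 for photosystem I, 0.66 for photosystem II, 0.43 for electron transport and 0.70 for the 2 ATP synthase genes. In Mlp124499 against Control the medians were 0.60, 0.33, 0.53, 0.41, 0.37, 0.07 and 0.17 in the same order, with 0.38 over all members and -0.01 over all genes tested. Without Control 1 the median over all members fell to 0.20 in Mlp124499 and to 0.49 in Mlp37347. These 2 comparisons share the Control libraries. Members above the whole Control range numbered 43, 43 and 42 of 51 in Mlp37347 1, 2 and 3, 24 in Mlp37347 4, and 31, 23, 23 and 30 in Mlp124499 1 to 4. Members below the Control range numbered 0 in Mlp37347 1 to 3, 8 in Mlp37347 4 and 4, 4, 3 and 0 in Mlp124499 1 to 4. How many of all genes tested lay outside the Control range was not counted by library, so neither count has a background.

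**Figure D2:**
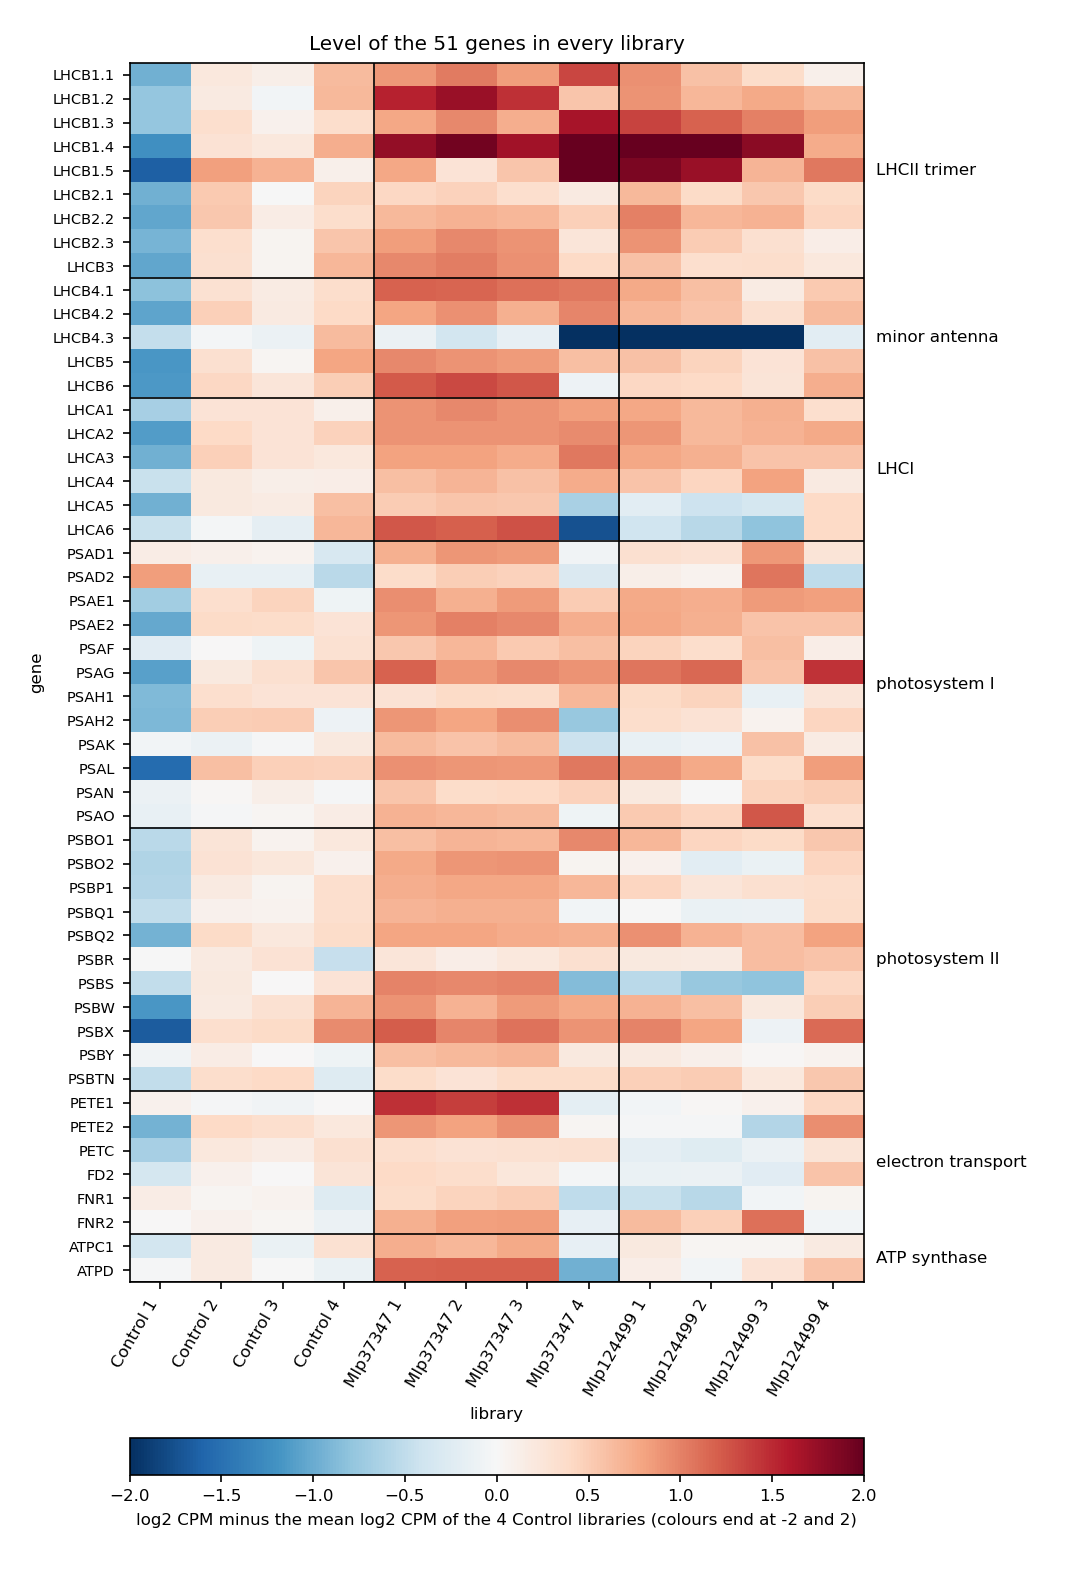
Level of the 51 genes (rows, grouped by complex) in the 12 libraries (columns), as log2 CPM minus the mean log2 CPM of the 4 Control libraries; red is higher and blue lower, and colours end at -2 and 2. Control 1 is blue in most rows, Mlp37347 1 to 3 are red in nearly all rows, and Mlp37347 4 has red LHCB1.1, LHCB1.3, LHCB1.4 and LHCB1.5 beside blue LHCB4.3, LHCA6, PSBS and ATPD.

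The promoters of the 5 called genes are shown with those of LHCB1.5 and PETE2, near relatives that were not called. Each sequence is the 250 bases before the gene start in the RefSeq annotation of TAIR10.1, matched by locus tag (51 of 51 members matched), on the gene's own strand and 5′ to 3′. The deposited counts carry no coordinates and were made on TAIR10, so these windows were not used in any count. Capitals mark matches, on either strand, to any of 6 strings: CACGTG (the G-box), GATAAG (the I-box), CCAATC (a string bound by GLK factors), AAAATATCT (the evening element), AAAAATCT (a string bound by CCA1) and TATAAA (the TATA box). The windows are chr1:10473503-10473752 on the minus strand for LHCB1.2, chr2:14524357-14524606 on the plus strand for LHCB1.4 and chr2:14523569-14523818 on the minus strand for LHCB1.5.
LHCB1.2: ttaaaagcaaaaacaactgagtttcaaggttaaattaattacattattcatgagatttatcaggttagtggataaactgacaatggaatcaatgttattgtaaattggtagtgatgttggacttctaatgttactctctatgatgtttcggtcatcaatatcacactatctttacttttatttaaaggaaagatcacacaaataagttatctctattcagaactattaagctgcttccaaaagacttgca
LHCB1.4: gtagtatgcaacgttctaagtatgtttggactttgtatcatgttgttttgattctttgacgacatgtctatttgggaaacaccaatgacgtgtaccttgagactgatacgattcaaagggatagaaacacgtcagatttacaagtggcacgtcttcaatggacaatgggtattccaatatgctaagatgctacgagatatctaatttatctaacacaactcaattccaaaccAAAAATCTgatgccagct
LHCB1.5: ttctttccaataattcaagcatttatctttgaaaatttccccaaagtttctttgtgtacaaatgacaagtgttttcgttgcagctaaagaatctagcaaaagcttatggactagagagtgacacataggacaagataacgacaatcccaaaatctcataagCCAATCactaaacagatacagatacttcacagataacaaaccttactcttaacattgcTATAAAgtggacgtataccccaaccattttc
The window of LHCB1.2 held none of the 6 strings. That of LHCB1.4 held AAAAATCT 18 bases before the start, and that of LHCB1.5 held CCAATC and TATAAA 89 and 31 bases before it. LHCB1.4 and LHCB1.5 are divergent neighbours that lie within 3395 bp on chromosome 2. The other windows are chr5:208616-208865 on the plus strand for LHCB4.1, chr3:20341177-20341426 on the minus strand for LHCA1, chr1:28554931-28555180 on the minus strand for PETE1 and chr1:7043393-7043642 on the minus strand for PETE2.
LHCB4.1: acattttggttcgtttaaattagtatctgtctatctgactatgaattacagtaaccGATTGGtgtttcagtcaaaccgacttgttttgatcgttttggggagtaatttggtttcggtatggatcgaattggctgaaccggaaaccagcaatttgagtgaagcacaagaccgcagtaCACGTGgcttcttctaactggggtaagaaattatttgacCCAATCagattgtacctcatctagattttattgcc
LHCA1: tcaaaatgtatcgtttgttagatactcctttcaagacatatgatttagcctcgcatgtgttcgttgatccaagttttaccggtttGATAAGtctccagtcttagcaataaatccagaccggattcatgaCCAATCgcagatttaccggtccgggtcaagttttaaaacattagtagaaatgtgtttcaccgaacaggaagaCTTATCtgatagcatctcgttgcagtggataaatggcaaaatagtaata
PETE1: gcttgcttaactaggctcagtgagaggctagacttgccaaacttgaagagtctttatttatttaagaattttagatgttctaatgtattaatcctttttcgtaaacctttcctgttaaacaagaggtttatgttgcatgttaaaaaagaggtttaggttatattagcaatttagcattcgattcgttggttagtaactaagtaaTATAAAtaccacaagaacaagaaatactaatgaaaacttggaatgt
PETE2: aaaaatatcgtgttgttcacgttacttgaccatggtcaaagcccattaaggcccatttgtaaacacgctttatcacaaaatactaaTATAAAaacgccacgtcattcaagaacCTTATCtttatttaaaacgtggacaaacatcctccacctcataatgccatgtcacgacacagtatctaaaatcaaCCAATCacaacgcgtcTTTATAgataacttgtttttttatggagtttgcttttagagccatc
LHCB4.1 and LHCA1 held CCAATC, LHCB4.1 also the G-box and LHCA1 also the I-box. Of the plastocyanin genes, PETE1 held only TATAAA and PETE2 held the I-box, CCAATC and TATAAA.

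Over all 51 members, the G-box was in 10 windows (19.6%, against 6.49% of the 27443 windows of the same length in the annotation), the I-box in 12 (23.5% against 12.3%) and CCAATC in 14 (27.5% against 10.2%). CCAATC was in 5 of 9 LHCII genes, 2 of 5 minor antenna genes and 3 of 6 LHCI genes, and in 0 of 12 photosystem I genes. The evening element was in 2 windows (3.92% against 2.36%), AAAAATCT in 5 (9.8% against 6.69%) and TATAAA in 23 (45.1% against 47.3%). A match describes the letters only, and it was set against no binding data.

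The LHCII trimer, the main antenna of photosystem II, is encoded by 5 LHCB1 genes, 3 LHCB2 genes and LHCB3 (AT5G54270). Per length, LHCB1.3 (AT1G29930) had the highest level of all members in Control, at 12436 ± 3850.0 CPM per kb of exon (SD, n = 4), followed by LHCB1.1 (AT1G29920) at 4798 ± 1892 CPM per kb. LHCB1.4 (AT2G34430) was at 755, 2152, 2039 and 2905 CPM in Control 1 to 4, at 5941, 6684, 5620.1 and 11560.5 CPM in Mlp37347 1 to 4 and at 7702, 7722, 6163 and 2948 CPM in Mlp124499 1 to 4. Means were 1963 ± 892 CPM (SD, n = 4), 7451 ± 2775 CPM and 6134 ± 2246 CPM. All Mlp37347 and Mlp124499 libraries were above all Control libraries, although Mlp124499 4 was just above Control 4 and Mlp37347 4 was far above the other 3 Mlp37347 libraries. LHCB1.4 rose by a log2 fold change of 1.92 (edgeR adjusted p = 0.016, SE 0.42) in Mlp37347 and of 1.64 (edgeR adjusted p = 0.045, SE 0.42) in Mlp124499. The call in Mlp37347 was kept in 19 of 20 other settings of scaling, filter, tool, fit or libraries (adjusted p 8.93e-07 to 0.0516) and that in Mlp124499 in 8 of 20 (7.72e-07 to 0.138). Leaving out any 1 of Control 1 to 3, Mlp37347 1 to 3 or Mlp124499 1 to 3 ended the latter call.

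LHCB1.2 (AT1G29910) was at 1876, 3597, 3073 and 4998 CPM in Control 1 to 4, at 9302, 10519, 8812 and 4663 CPM in Mlp37347 1 to 4 and at 5952, 5047, 5424 and 5024 CPM in Mlp124499 1 to 4. Means were 3386 ± 1294 CPM (SD, n = 4), 8324 ± 2544 CPM and 5362 ± 434 CPM. It was high in Mlp37347 1 to 3, while Mlp37347 4 lay within the Control range. All 4 Mlp124499 libraries were above Control, but Mlp124499 4 (5024 CPM) was only just above Control 4 (4998 CPM). The log2 fold change of LHCB1.2 was 1.3 (edgeR adjusted p = 0.024, SE 0.31) in Mlp37347, called in 14 of 20 other settings (2.86e-07 to 0.0827), and 0.66 (edgeR adjusted p = 0.31, SE 0.31) in Mlp124499. Of the other LHCII genes, LHCB1.1 and LHCB1.3 were above every Control library in all 4 Mlp37347 libraries, at 10472 to 14870.0 CPM against 3017 to 9042 CPM and at 24259 to 45785 CPM against 8518 to 18638 CPM. Neither passed the test (adjusted p = 0.08 and 0.052 in edgeR). LHCB2.1 (AT2G05100) was at 2063, 5732, 3971 and 5435 CPM in Control 1 to 4, at 5337, 5506, 5024 and 4529 CPM in Mlp37347 1 to 4 and at 6270.4, 5197, 5811 and 5217 CPM in Mlp124499 1 to 4. Its difference in Mlp37347 against Control was the smallest of the class. The 4 Mlp37347 libraries lay within the Control range, and the LHCB2.1 log2 fold change was 0.25 (edgeR adjusted p = 0.63, SE 0.28). LHCB2.2 (AT2G05070), LHCB2.3 (AT3G27690) and LHCB3 had log2 fold changes of 0.51, 0.66 and 0.72 in Mlp37347 and did not pass.

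Within the LHCB1 family the mix of transcripts differed between libraries. LHCB1.4 made up 5.3, 6.85, 7.44 and 8.11% of summed LHCB1 CPM in Control 1 to 4, 11.6, 11.5, 11.4 and 14.8% in the Mlp37347 libraries and 12.3, 13.9, 12.6 and 7.2% in the Mlp124499 libraries. LHCB1.2 made up 13.2, 11.5, 11.2 and 14% in Control, 18.1, 18.2, 17.8 and 5.98% in Mlp37347 and 9.47, 9.09, 11.1 and 12.3% in Mlp124499. The share of LHCB1.2 was thus highest in Mlp37347 1 to 3 and lowest of all 12 libraries in Mlp37347 4. LHCB1.1, LHCB1.2 and LHCB1.3 lie within 6835 bp on chromosome 1 and their coding sequences are 95.6% to 96.4% identical, but only 1.51% to 4.44% of the 100-base windows of their exons occur in another locus. How the authors treated reads with several alignments is not given in the sources used here, so shares within the family are uncertain to that extent.

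The values of LHCB1.5 (AT2G34420), of LHCB2.3 and of 4 photosystem I genes carry a further limit, the loci annotated opposite to them. All 100-base windows of the exons of LHCB1.5 also occur in another locus, AT2G08665 on the opposite strand, and so do 55.8% of those of PSAG (AT1G55670) with AT1G55673, and the share was 47.0% for PSAH1, 24.0% for PSAE1 and 12.4% for PSAH2. LHCB2.3 shared 36.3% of its windows with AT3G27700 on the opposite strand, and LHCB2.2 shared 12.4% with LHCB2.1. AT3G27700 was at 81.9 CPM in Control 1 and at 22.6 to 49 CPM in the other libraries. AT2G08665 was at 838 CPM in Control 1 and 425 CPM in Mlp124499 3, against 52 to 115 CPM in the other 10 libraries, and AT1G55673 was at 804 and 369 CPM against 22.3 to 82.9 CPM. Control 1 held the highest of the 12 values for 12 of the 20 loci annotated opposite to an exon of a member. LHCB1.5 itself was at 70.6, 387, 354 and 233 CPM in Control 1 to 4, at 371, 263, 322 and 1152 CPM in Mlp37347 1 to 4 and at 800.0, 721, 349 and 453 CPM in Mlp124499 1 to 4. Control 1 and Mlp37347 4 stood at its extremes, and its log2 fold change of 1.01 (edgeR adjusted p = 0.27, SE 0.55) was -0.03 in limma voom with sample weights. Control 1 was the lowest Control library in 15 of the 17 members with such a locus and in 27 of the 34 without one. The libraries were made with a stranded kit, and whether strand was used in counting is not given in the sources used here. The part of these opposite-strand counts in the low members of Control 1 was not tested.

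The minor antenna proteins LHCB4, LHCB5 (AT4G10340) and LHCB6 (CP29, CP26 and CP24) link the LHCII trimers to the photosystem II core. LHCB4.1 (AT5G01530) was at 1258, 2762, 2499 and 2846 CPM in Control 1 to 4, at 5027, 5012, 4763 and 4624 CPM in Mlp37347 1 to 4 and at 3767, 3385, 2488 and 3192 CPM in Mlp124499 1 to 4. Means were 2341 ± 737 CPM (SD, n = 4), 4856 ± 197 CPM and 3208 ± 536 CPM. All 4 Mlp37347 libraries were above all libraries of Control and of Mlp124499 and lay close together. LHCB4.1 rose in Mlp37347 against Control by a log2 fold change of 1.05 (edgeR adjusted p = 0.024, SE 0.26), a call kept in 15 of 20 other settings (6.67e-06 to 0.0733). In Mlp124499 against Control its log2 fold change was 0.45 (edgeR adjusted p = 0.43, SE 0.25), and in Mlp37347 against Mlp124499 it was 0.60 (edgeR adjusted p = 0.24, SE 0.25). LHCB4.2 (AT3G08940) was at 985, 2851, 2313 and 2694 CPM in Control 1 to 4, at 3534, 3834, 3331 and 4039 CPM in Mlp37347 1 to 4 and at 3248, 3032, 2567 and 3167 CPM in Mlp124499 1 to 4, with a smaller log2 fold change of 0.74 (edgeR adjusted p = 0.12, SE 0.28) in Mlp37347.

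LHCB4.3 (AT2G40100), the remaining LHCB4 gene, was the member with the lowest level per length in Control (41.2 ± 14.1 CPM per kb) and the only member below 0 in Mlp37347 against Control. It was at 41.3, 55.7, 53 and 88.9 CPM in Control 1 to 4, at 52.9, 44.4, 51.4 and 13.1 CPM in Mlp37347 1 to 4 and at 14, 12.6, 11.5 and 49.4 CPM in Mlp124499 1 to 4. Mlp124499 1 to 3 and Mlp37347 4 were at 11.5 to 14 CPM, below every Control library, and Mlp124499 4 lay among Control. Its log2 fold change was -1.45 (edgeR adjusted p = 0.16, SE 0.52) in Mlp124499 against Control and -0.56 (edgeR adjusted p = 0.53, SE 0.50) in Mlp37347 against Control, so neither passed. LHCB5 and LHCB6 had log2 fold changes of 0.68 and 0.90 in Mlp37347 (edgeR adjusted p = 0.2 and 0.15). LHCB6 (AT1G15820) was at 706 to 2191 CPM in Control, at 3644 to 3874 CPM in Mlp37347 1 to 3 and at 1446 CPM in Mlp37347 4.

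LHCI, the antenna of photosystem I, is built from LHCA1 to LHCA4 (AT3G47470), while LHCA5 and LHCA6 are minor proteins that in Arabidopsis join photosystem I to the NDH complex. LHCA1 (AT3G54890) was at 2535, 4872, 4867 and 4327 CPM in Control 1 to 4, at 7446, 7828, 7459 and 7129 CPM in Mlp37347 1 to 4 and at 6869.7, 6279, 6582 and 5096 CPM in Mlp124499 1 to 4. Means were 4150.1 ± 1107 CPM (SD, n = 4), 7465 ± 286 CPM and 6207 ± 779 CPM. Mlp37347 was above both other groups in every library, and Mlp124499 was above Control in every library. LHCA1 rose in Mlp37347 by a log2 fold change of 0.85 (edgeR adjusted p = 0.037, SE 0.23), called in 9 of 20 other settings (3.88e-05 to 0.0958), and its log2 fold change in Mlp124499 was 0.58 (edgeR adjusted p = 0.21, SE 0.23). LHCA2 (AT3G61470), LHCA3 (AT1G61520) and LHCA4 were also above every Control library in all Mlp37347 libraries, with log2 fold changes of 0.79, 0.76 and 0.63 that did not pass (edgeR adjusted p = 0.11, 0.096 and 0.081).

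LHCA5 (AT1G45474) was at 40.6, 90.4, 88.1 and 119 CPM in Control 1 to 4, at 112, 115, 114 and 50.5 CPM in Mlp37347 1 to 4 and at 68, 59, 61.4 and 103 CPM in Mlp124499 1 to 4. LHCA6 (AT1G19150) was at 43.5, 57.5, 52.1 and 93.5 CPM in Control 1 to 4, at 139, 136, 143 and 17.6 CPM in Mlp37347 1 to 4 and at 44.7, 40.1, 33.9 and 77.7 CPM in Mlp124499 1 to 4. Both were lowest of the Mlp37347 group in library 4, where LHCA6 was below all Control libraries while Mlp37347 1 to 3 were above them. The log2 fold changes in Mlp37347 against Control were 0.21 (edgeR adjusted p = 0.74, SE 0.34) for LHCA5 and 0.82 (edgeR adjusted p = 0.33, SE 0.50) for LHCA6. Without Mlp37347 4, LHCA6 passed at 1.21 (edgeR adjusted p = 0.014). In Mlp124499 against Control the values were -0.21 and -0.33, and neither passed.

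In photosystem I no gene passed in any comparison, and the medians were 0.54 in Mlp37347 and 0.41 in Mlp124499. The stromal subunit pair PSAD1 and PSAD2 (AT1G03130) docks ferredoxin. PSAD1 (AT4G02770) was at 2385, 2307, 2251 and 1727 CPM in Control 1 to 4, at 3505, 3947, 3868 and 2043 CPM in Mlp37347 1 to 4 and at 2689, 2615, 3909.5 and 2572 CPM in Mlp124499 1 to 4. PSAD2, the gene with the smallest difference of the class in Mlp37347 against Control, was at 2796, 1422, 1413 and 1078 CPM in Control 1 to 4, at 2016, 2202, 2161 and 1289 CPM in Mlp37347 1 to 4 and at 1708, 1654, 3303 and 1104 CPM in Mlp124499 1 to 4. Unlike most members, both PSAD genes were highest of their group in Control 1 and in Mlp124499 3. The log2 fold change of PSAD2 was 0.19 (edgeR adjusted p = 0.78, SE 0.37) in Mlp37347 and -0.01 under scaling by total counts.

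PSAE1 and PSAE2 encode the other stromal docking subunit. PSAE1 (AT4G28750) was at 458, 939, 1014 and 701 CPM in Control 1 to 4, at 1423, 1220.2, 1346 and 1058 CPM in Mlp37347 1 to 4 and at 1258, 1229.9, 1338 and 1308 CPM in Mlp124499 1 to 4. PSAE2 (AT2G20260) was at 134, 356, 352 and 332 CPM in Control 1 to 4, at 503, 548, 532 and 453 CPM in Mlp37347 1 to 4 and at 468, 448, 407 and 408 CPM in Mlp124499 1 to 4. Both genes had every library of both effector lines above every Control library, with log2 fold changes in Mlp37347 of 0.70 (edgeR adjusted p = 0.089, SE 0.24) and 0.79 (edgeR adjusted p = 0.083, SE 0.27). PSAG, which contacts LHCI, was at 145, 354, 386 and 454 CPM in Control 1 to 4, at 695, 565, 599 and 577 CPM in Mlp37347 1 to 4 and at 647, 681, 458 and 843 CPM in Mlp124499 1 to 4, again with no overlap. Its log2 fold changes were 0.86 (edgeR adjusted p = 0.1, SE 0.31) in Mlp37347 and 0.97 (edgeR adjusted p = 0.1, SE 0.31) in Mlp124499, and its Control 1 value stands beside the opposite-strand count given above.

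PSAH, which with PSAL (AT4G12800) and PSAO (AT1G08380) forms the docking side for LHCII, is encoded by PSAH1 and PSAH2. PSAH1 (AT3G16140) was at 204, 478, 459 and 457 CPM in Control 1 to 4, at 463, 493, 489 and 599 CPM in Mlp37347 1 to 4 and at 491, 518, 343 and 449 CPM in Mlp124499 1 to 4. PSAH2 (AT1G52230) was at 326, 860.4, 866 and 568 CPM in Control 1 to 4, at 1127, 1051, 1163 and 359 CPM in Mlp37347 1 to 4 and at 779.7, 748, 636 and 820.2 CPM in Mlp124499 1 to 4. PSAH2 was low in Mlp37347 4 and Control 1, where PSAH1 was highest of its group in the former and lowest in the latter. Log2 fold changes in Mlp37347 were 0.35 and 0.50. PSAF (AT1G31330), PSAL and PSAN (AT5G64040) had all Mlp37347 libraries above all Control libraries, at 0.57, 0.72 and 0.44, while PSAK (AT1G30380) and PSAO (0.41 and 0.51) overlapped through library 4. PSAO was above Control in every Mlp124499 library, at 1987 to 3718 CPM against 1419 to 1744 CPM, with a log2 fold change of 0.67 (edgeR adjusted p = 0.18, SE 0.25).

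Photosystem II members had log2 fold changes of 0.20 to 0.78 in Mlp37347, and none passed. The oxygen-evolving complex on the lumen side is stabilised by PSBO, PSBP and PSBQ. PSBO1 (AT5G66570) was at 2529, 4395, 3864 and 4251 CPM in Control 1 to 4, at 5583, 5885, 5803 and 7186 CPM in Mlp37347 1 to 4 and at 5798, 4928, 4799.7 and 5321 CPM in Mlp124499 1 to 4. PSBO2 (AT3G50820) was at 631, 1171, 1125 and 1012 CPM in Control 1 to 4, at 1616, 1769, 1776 and 995 CPM in Mlp37347 1 to 4 and at 1018, 825, 877 and 1286 CPM in Mlp124499 1 to 4. PSBO1 was above Control in every library of both effector lines, but PSBO2 overlapped Control in both, and the log2 fold changes in Mlp37347 were 0.70 (edgeR adjusted p = 0.059, SE 0.21) and 0.64 (edgeR adjusted p = 0.14, SE 0.26). PSBP1 (AT1G06680) was above Control in all 4 Mlp37347 libraries (3821 to 4099 CPM against 1599 to 3043 CPM), at a log2 fold change of 0.69 (edgeR adjusted p = 0.058, SE 0.21).

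PSBQ1 (AT4G21280) was at 692, 1038, 1023 and 1236 CPM in Control 1 to 4, at 1564, 1594, 1597 and 943 CPM in Mlp37347 1 to 4 and at 969, 887, 900.3 and 1255 CPM in Mlp124499 1 to 4. PSBQ2 (AT4G05180) was at 630.5, 1586, 1411 and 1568 CPM in Control 1 to 4, at 2115, 2109, 2049 and 1991 CPM in Mlp37347 1 to 4 and at 2299, 1974, 1873 and 2123 CPM in Mlp124499 1 to 4. PSBQ2 had every library of both effector lines above Control, while PSBQ1 was above all Control libraries only in Mlp37347 1 to 3 and Mlp124499 4. Log2 fold changes in Mlp37347 were 0.51 for PSBQ1 and 0.67 for PSBQ2, and the latter was 0.67 (edgeR adjusted p = 0.2, SE 0.26) in Mlp124499. PSBR (AT1G79040), a lumenal subunit with the smallest difference of the class in Mlp37347 against Control, was at 3398, 3853, 4171 and 2469.9 CPM in Control 1 to 4, at 4025, 3749, 3956 and 4256 CPM in Mlp37347 1 to 4 and at 3909.9, 3841, 5242 and 5043 CPM in Mlp124499 1 to 4. The groups overlapped and the log2 fold change was 0.20 (edgeR adjusted p = 0.59, SE 0.21), or 0.00 under scaling by total counts.

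PSBS (AT1G44575), the sensor protein of energy-dependent quenching, was at 625, 1004, 883 and 1055 CPM in Control 1 to 4, at 1732, 1703, 1749 and 478 CPM in Mlp37347 1 to 4 and at 605, 517, 500.3 and 1163 CPM in Mlp124499 1 to 4. Mlp37347 1 to 3 were above all Control libraries, while Mlp37347 4 and Mlp124499 1 to 3 were below all of them, and Mlp124499 4 was above. The log2 fold change was 0.67 (edgeR adjusted p = 0.32, SE 0.40) in Mlp37347, -0.36 (edgeR adjusted p = 0.78, SE 0.39) in Mlp124499 and 1.02 (edgeR adjusted p = 0.2, SE 0.40) between the effector lines. Without Mlp37347 4 it passed at 0.99 against Control (edgeR adjusted p = 0.031) and at 1.3 against Mlp124499 (edgeR adjusted p = 0.012). The small subunits PSBW (AT2G30570), PSBX (AT2G06520), PSBY (AT1G67740) and PSBTN (AT3G21055) had log2 fold changes of 0.66, 0.78, 0.54 and 0.29, and of these PSBW and PSBY did not overlap Control in Mlp37347.

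Plastocyanin carries electrons from cytochrome b6f to photosystem I, and PETE1 is the less abundant of its 2 genes, at 149.9 ± 7.4 against 1518 ± 523 CPM per kb for PETE2 in Control. PETE1 (AT1G76100) was at 167, 154, 149 and 158 CPM in Control 1 to 4, at 433, 411, 431 and 137 CPM in Mlp37347 1 to 4 and at 150.4, 159.8, 166 and 210.2 CPM in Mlp124499 1 to 4. Means were 157 ± 7.76 CPM (SD, n = 4), 353 ± 144 CPM and 172 ± 26.5 CPM. Control and Mlp124499 stayed between 149 and 210.2 CPM, Mlp37347 1 to 3 were at 411 to 433 CPM, and Mlp37347 4 was below all Control libraries. PETE1 rose by a log2 fold change of 1.17 (edgeR adjusted p = 0.032, SE 0.30), a call that rests on libraries 1 to 3 and was kept in 10 of 20 other settings (1.31e-08 to 0.103). Without Mlp37347 4 the value was 1.47. In Mlp124499 against Control it was 0.13 (edgeR adjusted p = 0.91, SE 0.30) and in Mlp37347 against Mlp124499 1.04 (edgeR adjusted p = 0.091, SE 0.30), which passed without Mlp37347 4 at 1.3 (edgeR adjusted p = 0.00033). PETE2 (AT1G20340) was at 1004, 2527, 2418 and 2231 CPM in Control 1 to 4, at 3533, 3364, 3679 and 1975 CPM in Mlp37347 1 to 4 and at 1901, 1893, 1287 and 3675 CPM in Mlp124499 1 to 4, with overlap in both comparisons.

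The Rieske subunit gene PETC (AT4G03280) and the leaf ferredoxin gene FD2 (AT1G60950) overlapped Control, with log2 fold changes in Mlp37347 of 0.26 (edgeR adjusted p = 0.5, SE 0.22) and 0.23 (edgeR adjusted p = 0.57, SE 0.23). FD2, the smallest difference of the class, was at 1153, 1569, 1474 and 1758 CPM in Control 1 to 4, at 1949, 1884, 1718 and 1431 CPM in Mlp37347 1 to 4 and at 1336, 1352, 1261 and 2174 CPM in Mlp124499 1 to 4. FNR1 (AT5G66190) was at 945, 873, 898 and 714 CPM in Control 1 to 4, at 1097, 1166, 1197 and 597 CPM in Mlp37347 1 to 4 and at 623, 578, 822 and 886 CPM in Mlp124499 1 to 4. FNR2 (AT1G20020) was at 427, 449, 435 and 391 CPM in Control 1 to 4, at 692, 748, 762 and 380.4 CPM in Mlp37347 1 to 4 and at 659, 590.4, 909.6 and 410.3 CPM in Mlp124499 1 to 4. For both reductase genes Mlp37347 1 to 3 were above Control and Mlp37347 4 below, and FNR2 was also above Control in Mlp124499 1 to 3. The log2 fold changes in Mlp37347 were 0.24 and 0.60, and neither passed. Of the ATP synthase genes, ATPC1 (AT4G04640), for the gamma subunit, was at 619.6, 909, 732 and 988 CPM in Control 1 to 4, at 1322, 1268, 1349 and 715 CPM in Mlp37347 1 to 4 and at 912, 821, 822 and 906 CPM in Mlp124499 1 to 4. ATPD (AT4G09650), for the delta subunit, was at 595, 685, 602 and 556 CPM in Control 1 to 4, at 1378, 1389, 1394 and 313 CPM in Mlp37347 1 to 4 and at 663, 582, 734 and 904 CPM in Mlp124499 1 to 4. ATPC1 had the smaller log2 fold change, 0.52 (edgeR adjusted p = 0.19, SE 0.23). ATPD had a tight plateau in Mlp37347 1 to 3, well above Control, with Mlp37347 4 below every other library. Its log2 fold change was 0.88 (edgeR adjusted p = 0.16, SE 0.37), or 1.23 without Mlp37347 4 (edgeR adjusted p = 0.00083).

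**Figure D3:**
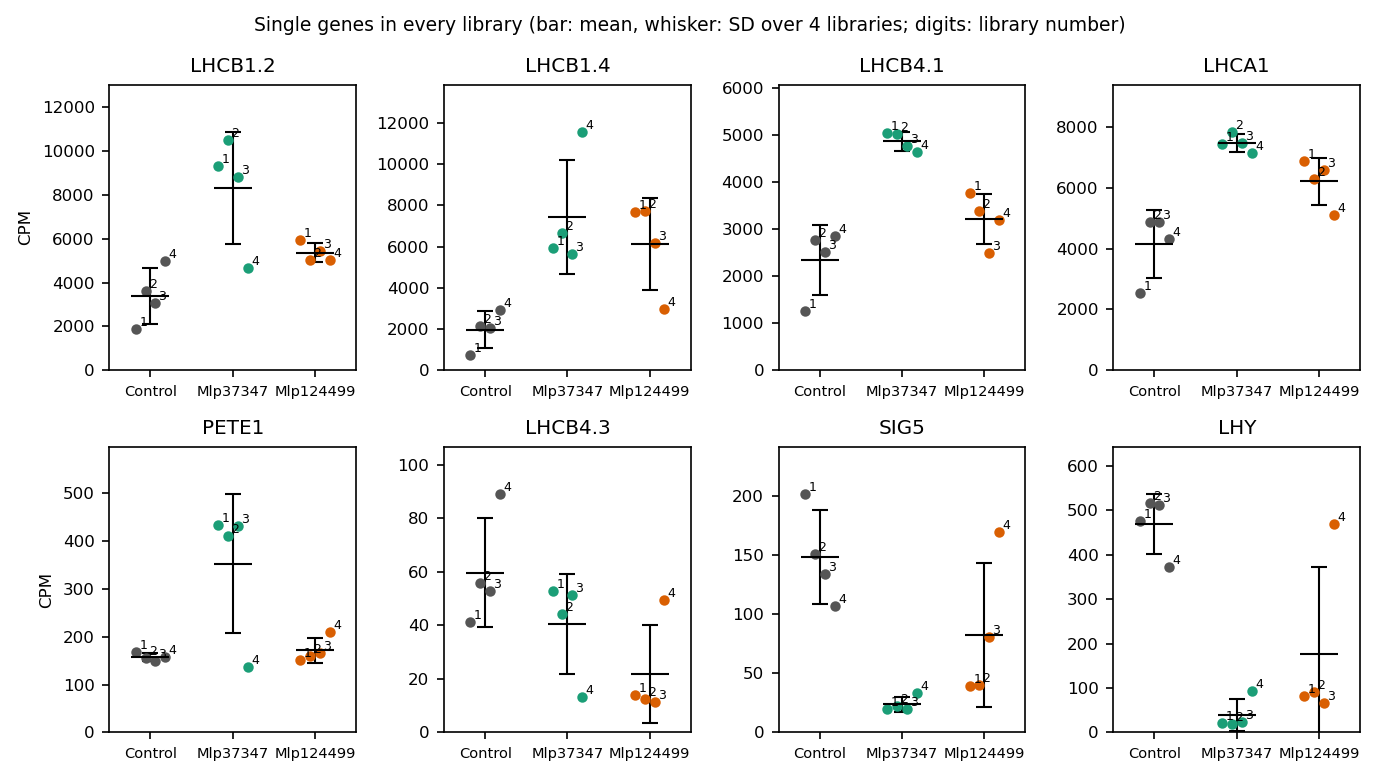
CPM (y axes start at 0) of the 5 called members, of LHCB4.3 and, for comparison, of SIG5 and LHY in every library; points are libraries with their number, bars the mean and whiskers the SD over 4 libraries, cut at 0 for LHY. PETE1 is at 411 to 433 CPM in Mlp37347 1 to 3 and at 137 CPM in Mlp37347 4, and LHCB4.3 is at 11.5 to 14 CPM in Mlp124499 1 to 3.

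Over all members, Mlp37347 4 lay below the range of Mlp37347 1 to 3 in 33 genes, above it in 12 and within it in 6. The genes above were 4 of 9 LHCII genes, 3 of 6 LHCI genes, 2 photosystem I genes, 2 photosystem II genes and 1 minor antenna gene, and 5 of 6 electron transport genes and both ATP synthase genes were below. No such count was made over all genes. The spread over all 12 libraries, as a coefficient of variation, had a median of 27.7% over members (16.1% to 64.8%), against 30.7% for all genes tested and 26.8% for genes with a mean of at least 10 CPM.

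**Figure D4:**
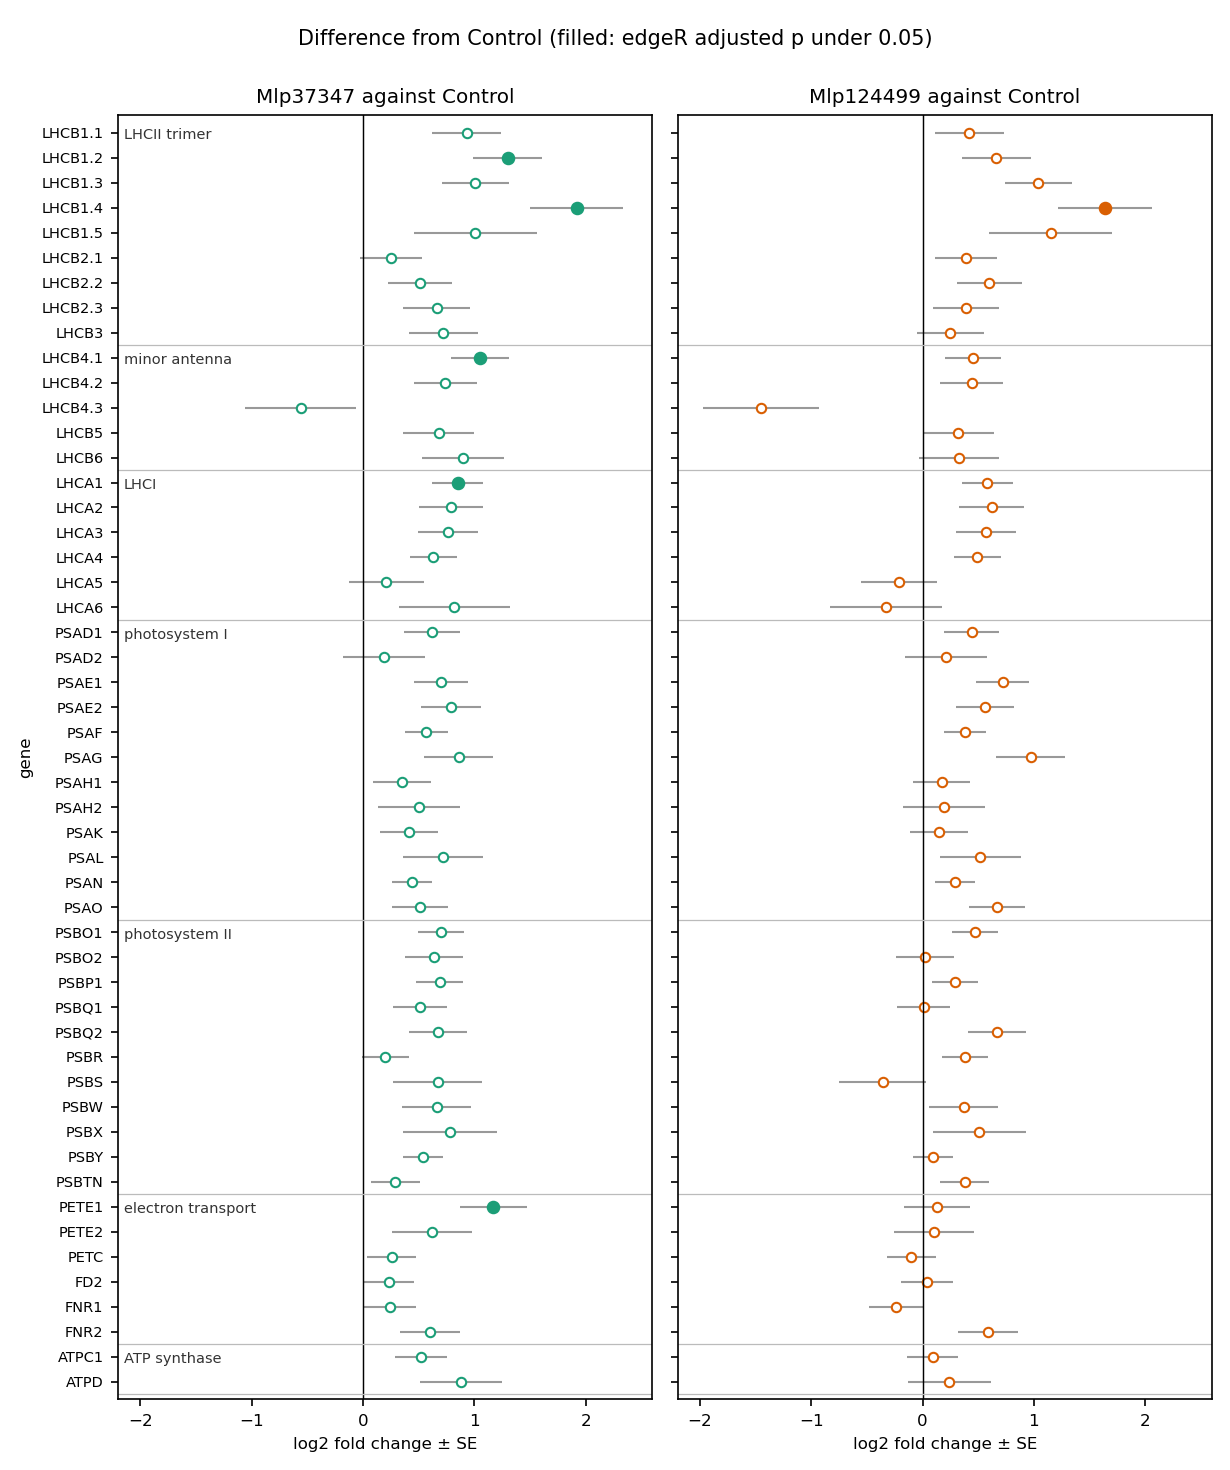
Log2 fold change (x axis) with SE of each member (rows, by complex) in Mlp37347 against Control and Mlp124499 against Control, which share the Control libraries; filled points passed the edgeR test at an adjusted p under 0.05. All genes but LHCB4.3 are right of 0 in Mlp37347, with 5 filled points, and LHCB1.4 is the only filled point in Mlp124499.

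Against Control, Mlp124499 had 45 of 51 members above 0 and 13 with every library above every Control library, a state found in 4.31% of all genes tested. No member had all Mlp124499 libraries below Control, found in 6.64% of all genes. The 13 were 3 LHCII genes, 3 LHCI genes, 5 photosystem I genes and 2 photosystem II genes. At an unadjusted p under 0.05, 11 members were higher and 1, LHCB4.3, lower. The share of all genes at an unadjusted p under 0.05 was not counted, so this and the other unadjusted counts given here have no background. DESeq2 called 5 higher and 0 lower, where it called 3.33% and 4.51% of all genes, and limma voom with sample weights called 20 higher and 5 lower, where it called 16.1% and 20.1%. Against Mlp124499, Mlp37347 had 40 of 51 members above 0 and a median of 0.27, against 0.02 for all genes. No member was called in either direction by edgeR, where 1.1% of all genes were called higher and 1.59% lower. At an unadjusted p under 0.05, 6 were higher and 0 lower, DESeq2 called 2 higher and 0 lower, where it called 3.53% and 3.65% of all genes, and limma voom called 24 and 2, where it called 27.3% and 27%. In 9 members every Mlp37347 library was above every Mlp124499 library, against 5.32% of all genes, and in 0 the reverse held, against 5.58%. The 9 were LHCB4.1, LHCB4.2, LHCB5, LHCA1, LHCA2, PSBP1, PSBW, PSBY and PETC, named after their values were seen. Without Mlp37347 4 edgeR called 8 members higher in this comparison, and 7.26% of all genes higher and 7.2% lower.

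The 9 pairs of genes that encode the same subunit were compared as log2 ratios within each library, so that scaling between libraries drops out. In 27 exact two-sided permutation tests (4 against 4 libraries, smallest possible p 0.0286), 4 reached that smallest p and none passed after adjustment over the 27 (lowest adjusted p 0.193). A few ratios at the smallest possible p cannot pass after adjustment over 27 tests, even with groups fully apart. The adjusted values therefore do not decide if these ratios differed. LHCB1.1 over LHCB1.3 was -1.50, -1.44, -1.29 and -1.04 in Control 1 to 4, -1.22, -1.24, -1.21 and -1.62 in Mlp37347 and -1.76, -1.91, -1.97 and -2.06 in Mlp124499. All Mlp124499 libraries were below all others, by 0.61 from Control and 0.60 from Mlp37347 (exact permutation p = 0.0286 and adjusted p = 0.193 for each). PSBQ1 over PSBQ2 was 0.13, -0.61, -0.46 and -0.34 in Control and -1.25, -1.15, -1.06 and -0.76 in Mlp124499, a difference of -0.73 with no overlap and the same exact permutation p. FNR1 over FNR2 was 1.15, 0.96, 1.05 and 0.87 in Control, 0.66, 0.64, 0.65 and 0.65 in Mlp37347 and -0.08, -0.03, -0.15 and 1.11 in Mlp124499. The FNR ratio was nearly the same in all 4 Mlp37347 libraries although library 4 had the lowest levels of both genes in its group, and it was 0.35 below Control with the same exact permutation p.

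For PETE1 over PETE2 the ratio was -2.59, -4.03, -4.02 and -3.82 in Control and -3.03, -3.03, -3.09 and -3.85 in Mlp37347, with overlap (difference 0.36, exact permutation p = 0.429). PSBO1 over PSBO2 was 1.78 to 2.07 in Control, 1.71 to 1.79 in Mlp37347 1 to 3, 2.85 in Mlp37347 4 and 2.05 to 2.58 in Mlp124499. LHCB4.1 over LHCB4.2 was 0.28 higher in Mlp37347 than in Control (exact permutation p = 0.0571, adjusted p = 0.220). The PSAD, PSAE and PSAH pairs overlapped in every comparison, with differences of -0.27 to 0.33.

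**Figure D5:**
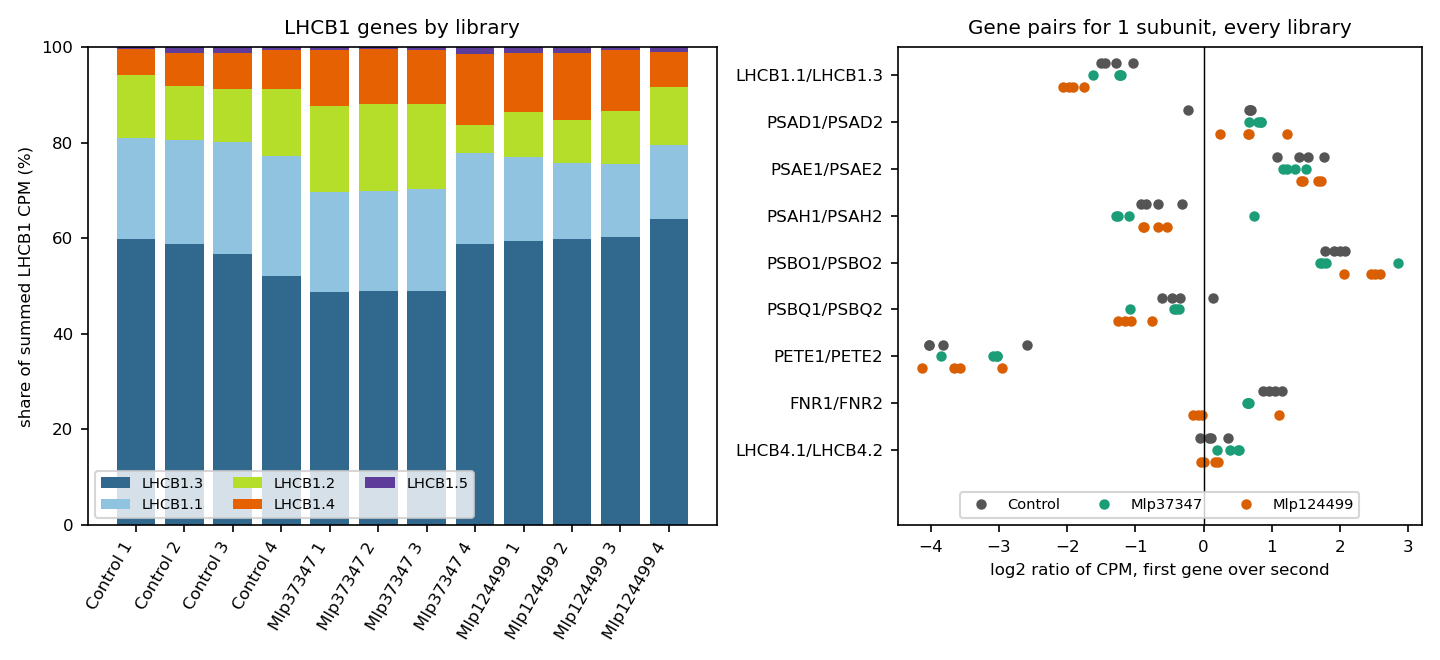
Left, share (%) of the 5 LHCB1 genes in their summed CPM in each library; right, log2 ratio of CPM of the first gene over the second for 9 pairs, 1 point per library, coloured by group. LHCB1.4 takes 5.3% to 8.11% in Control and 11.4% to 14.8% in Mlp37347, and the LHCB1.1 to LHCB1.3 ratio is lowest in Mlp124499.

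A list of 43 other genes that build, regulate or maintain the same complexes was described in the same way. Of these genes, 0 were called higher and 2 lower in Mlp37347 against Control, with a median log2 fold change of 0.00 (unadjusted p under 0.05 in 3 higher and 5 lower, DESeq2 2 higher and 4 lower, limma voom 17 and 9). Over all genes edgeR called 3.19% higher and 5.42% lower, DESeq2 6.91% and 7.73%, and limma voom 27.6% and 29.5%, so the 2 lower calls are near the background. STN7, the kinase of state transitions, was at 299, 259.6, 253 and 196 CPM in Control 1 to 4, at 146, 146, 155 and 147 CPM in Mlp37347 1 to 4 and at 181, 168, 277 and 184 CPM in Mlp124499 1 to 4. SIG5, a light- and stress-responsive plastid sigma factor, was at 202, 151, 134 and 107 CPM in Control 1 to 4, at 20.1, 22.3, 20.1 and 33.5 CPM in Mlp37347 1 to 4 and at 39.6, 40.2, 80.8 and 169.6 CPM in Mlp124499 1 to 4. All Mlp37347 libraries of both genes were below all Control libraries. STN7 fell, with a log2 fold change of -0.76 (edgeR adjusted p = 0.034, SE 0.20), called in 11 of 20 other settings (7.86e-06 to 0.118), and SIG5 fell, with -2.63 (edgeR adjusted p = 0.0043, SE 0.44), called in all 20 (2.45e-09 to 0.0229).

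GLK1 and GLK2 encode activators of antenna genes. GLK1 was at 161, 189.5, 203 and 157 CPM in Control 1 to 4, at 125, 137, 117 and 109 CPM in Mlp37347 1 to 4 and at 220.2, 221, 258 and 356 CPM in Mlp124499 1 to 4. GLK2 was at 215, 179, 194 and 169 CPM in Control 1 to 4, at 123, 140.3, 119 and 151 CPM in Mlp37347 1 to 4 and at 149, 143, 202 and 287 CPM in Mlp124499 1 to 4. In Mlp37347 both genes were below all Control libraries, at log2 fold changes of -0.54 (edgeR adjusted p = 0.1, SE 0.19) and -0.51 (edgeR adjusted p = 0.18, SE 0.23), and GLK1 was above Control in all Mlp124499 libraries at 0.57 (edgeR adjusted p = 0.14, SE 0.19). Between the effector lines GLK1 was lower in Mlp37347 at -1.11 (edgeR adjusted p = 0.011, SE 0.20), called in 18 of 20 other settings (9.09e-07 to 0.0658). SIG5 was also lower there, at -1.78 (edgeR adjusted p = 0.046, SE 0.43), called in 10 of 20 (3.49e-05 to 0.151). Of the 43 listed genes, edgeR called 0 higher and 2 lower in that comparison, where it called 1.1% and 1.59% of all genes. In Mlp124499 against Control it called no listed gene in either direction, where it called 1.56% of all genes higher and 2.71% lower. Between the effector lines 6 listed genes were higher and 6 lower at an unadjusted p under 0.05. There DESeq2 called 1 higher and 2 lower (3.53% and 3.65% of all genes) and limma voom 27 and 7 (27.3% and 27%). In Mlp124499 against Control 4 were higher and 4 lower at an unadjusted p under 0.05. There DESeq2 called 2 higher and 1 lower (3.33% and 4.51% of all genes) and limma voom 4 and 18 (16.1% and 20.1%).

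Other measured values moved with the groups. The clock genes CCA1 and LHY, whose transcripts peak around dawn, and PRR5, which peaks later in the day, differed between libraries, and the hour of harvest is not in the labels. Of the 9 clock genes listed, edgeR called 4 higher and 1 lower in Mlp37347 against Control, beside 3.19% and 5.42% of all genes. LHY was at 476, 516, 512 and 372 CPM in Control 1 to 4, at 22, 19.2, 24.1 and 92.6 CPM in Mlp37347 1 to 4 and at 82, 91.7, 66.1 and 470.3 CPM in Mlp124499 1 to 4. CCA1 was at 362, 331, 363 and 264 CPM in Control 1 to 4, at 43, 42, 45.8 and 137 CPM in Mlp37347 1 to 4 and at 57.7, 65.5, 48.2 and 408 CPM in Mlp124499 1 to 4. PRR5 was at 1.59, 2.41, 0.47 and 1.18 CPM in Control 1 to 4, at 40.4, 62.3, 40.7 and 192 CPM in Mlp37347 1 to 4 and at 64.3, 64.1, 59.2 and 1.75 CPM in Mlp124499 1 to 4. Mlp124499 4 was near Control in all 3 clock genes, Mlp37347 4 lay apart from Mlp37347 1 to 3, and Mlp37347 1 to 3 were lowest in LHY. The epidermis markers ATML1, PDF1, FDH and CER6 summed to 636 to 939.6 CPM in Control, 1313 to 1540.3 CPM in Mlp37347 and 1077 to 1260.1 CPM in Mlp124499, with 0 of 4 markers at 0, and 3 of the 4 were above every Control library in all Mlp37347 libraries. Guard cell markers summed to 129 to 177 CPM in Control, 99.7 to 127 CPM in Mlp37347 and 177 to 259 CPM in Mlp124499. KAT1 carried this difference, with mean levels of 71.8, 29.2 and 117 CPM, while FAMA, GC1 and HT1 overlapped between groups. Vasculature markers overlapped between groups. The inner distance between read mates was 110 or 115 bp in Mlp37347 1 to 3 and 50 to 84 bp in the other 9 libraries. The part of clock state, cell composition and library preparation in the values of the 51 genes was not tested.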

How the data were processed

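RNA sequencing counts of 12 libraries in 3 groups of 4 were used. Per the labels' protocols, libraries were made from 100 ng of total RNA with a stranded mRNA kit on an automated system and sequenced as pairs of 100 nt. The authors deposited raw counts of reads per locus (unit: counts). Per the submitters' processing notes, Trimmomatic, TopHat2 2.0.14, TAIR10 and R 3.2.5 were used, and reads were counted with GenomicAlignments, per the labels. Use of strand and of reads with several alignments in counting is not given in the sources used here. A second table gave the authors' deposited numbers of reads, surviving and aligned reads and mate distances.

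From the counts, CPM were computed with TMM factors, and genes were filtered with filterByExpr, which left 19090 of 32833 loci. One model over all 12 libraries was fitted with edgeR 4.0.16 (glmQLFit, glmQLFTest) in R 4.3.3, without covariates. P-values were adjusted by Benjamini and Hochberg over all genes tested, with a threshold of 0.05. SE was taken as the size of the log2 fold change over the root of its F statistic. Ratios between gene pairs were compared by exact two-sided permutation over libraries. The script was tested on simulated counts that held no outlying library, so that test does not bear on how calls depend on single libraries. Total counts per library were 6645703 to 37378917.

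The members, lists and tests were chosen with earlier results of these data known. Values in every library were given for called members, for the smallest change of each class in Mlp37347 against Control, for gene pairs of 1 subunit, and always for LHCB4.3, LHCA5, LHCA6, GLK1, GLK2, STN7, CCA1, LHY and PRR5. Other genes given by library were chosen after their values were seen. Deviations from group means of same-numbered libraries correlated at -0.39 to 0.09, so no pairing by number was seen. Libraries of unlike number reached 0.55 (Control 1 with Mlp124499 3) and -0.43 (Control 4 with Mlp124499 3). In small groups an outlying library can carry such a value, so a shared batch was not tested by it. Alternatives were RLE and total-count scaling, no filter, DESeq2 1.42.0, limma 3.58.1 voom with sample weights, fits of 8 libraries, a replicate block, and libraries left out. Sequences came from RefSeq TAIR10.1 by locus tag, which matched 99.1% of loci.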

Additional observations from a re-analysis of the deposited data

Results flagged for a closer look

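In 24 of 153 sets of 4 libraries (51 genes in 3 groups), 1 library stood apart by Dixon's test for gaps. The limit is set so that chance flags about 1 in 20 independent sets, but these sets are genes of the same 12 libraries, so that rate is no yardstick for the count of 24.

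Mlp37347 4 accounted for 14 of the 24. It was low for LHCB6 (1446 CPM), LHCA5 (50.5 CPM), LHCA6 (17.6 CPM), PSAH2 (359 CPM), PSAK (1044 CPM), PSAO (1481 CPM), PSBQ1 (943 CPM), PSBS (478 CPM), PETE1 (137 CPM), FNR1 (597 CPM), ATPC1 (715 CPM) and ATPD (313 CPM). It was high for LHCB1.5 (1152 CPM) and LHCA2 (4848 CPM).

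Control 1 was low for LHCA4 (4292 CPM), PSAE2 (134 CPM), PSAH1 (204 CPM) and PSAL (676 CPM). Mlp124499 4 was high for LHCB4.3 (49.4 CPM), PSBS (1163 CPM) and FD2 (2174 CPM). Mlp124499 3 was high for PSAD1 (3909.5 CPM) and PSAO (3718 CPM), and Mlp37347 2 was low for PSBTN (1061 CPM), a gene whose other 3 Mlp37347 libraries lay between 1127 and 1131 CPM. Control 1 is the library with the fewest counts and with 57.6% of surviving reads aligned. The cause of these gaps was not tested.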

How the results depend on the processing

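Both the counts of calls and, for some members, the sign depended on the setting. The number of members higher in Mlp37347 against Control was 5, and it was 8 with RLE scaling, 3 with total-count scaling, 20 with DESeq2, 43 with limma voom with sample weights, 3 with only the 8 libraries compared and 37 without Control 1, Mlp37347 4 and Mlp124499 4 together. The share of all genes called higher was 3.19%, and in these settings 3.56%, 1.84%, 6.91%, 27.6%, 3.52% and 17.8% in the same order. In Mlp124499 against Control the number of members higher was 1, beside 1.56% of all genes. It was 0 without a filter (0.96%) or with 8 libraries (1.56%), 5 with DESeq2 (3.33%) and 20 with voom (16.1%, and 5 members lower beside 20.1%). Without the 3 libraries it was 16 (6 lower), where 11% of all genes were called higher and 14.6% lower. In Mlp37347 against Mlp124499 the number of members higher was 0, beside 1.1% of all genes. It was 2 with DESeq2 (3.53%) and 24 with voom (27.3%, and 2 members lower beside 27%). Without the 3 libraries it was 20 (1 lower), where 18.9% of all genes were called higher and 18.8% lower. Leaving out 1 library at a time gave 0 to 23, 0 to 2 and 0 to 8 members higher, and 0 to 1 lower in Mlp124499 against Control. The share of all genes called higher was then 1.15% to 11.6%, 0.461% to 4.11% and 0.321% to 7.26% in the same order. In Mlp124499 against Control 0.765% to 5.62% of all genes were called lower. The medians of the members then ranged from 0.49 to 0.76, 0.20 to 0.49 and 0.23 to 0.33. Voom gave Mlp37347 4 a weight of 0.0911 and Mlp37347 1 a weight of 4.5. Under total-count scaling the Mlp37347 means moved to 167089 CPM for all members, 25593 CPM for LHCI and 25205 CPM for photosystem II. In Mlp37347 against Control the sign turned for PSAD2 (-0.01) and PSBR (0.00) under total counts, for LHCB1.5 under voom and without the 3 libraries (-0.03 each), and for LHCA5 without Control 1 (-0.01, the lowest of -0.01 to 0.47 with 1 library left out). Over all settings the sign turned in at least 1 for 4 of 51 members in that comparison, for 12 in Mlp124499 against Control and for 11 in Mlp37347 against Mlp124499. The cause was not tested. With a replicate block the number higher was 1 in Mlp37347 against Control and 0 in Mlp124499 against Control, although no pairing by number was seen. Of all genes 1.24% and 0.503% were then called higher.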
